A study of Mus musculus with 3 samples.

Results

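The cells described here are fibroblasts of ectopic tissue masses in CD1 mice that carried transcripts of at least 2 of the genes Barx2, Dkk2, Ret and Nos2. They were selected on measured values. A cell was a member if it had at least 500 unique molecular identifiers (UMIs, the counted RNA molecules) and 300 genes and at most 15% mitochondrial UMIs. Col1a1, Col1a2 and Col3a1, the chains of collagen types I and III, had to give at least 1% of its UMIs, which defines the collagen cells. Inhba had to be under 3 UMIs, Acta2 under 0.1% of UMIs and Col2a1 under 10 UMIs, which defines the eligible cells. Finally, at least 2 of the 4 rule genes Barx2, Dkk2, Ret and Nos2 had to be detected. This gave 397 members among 21148 cells kept, with 336 in the library of Matrigel alone, 31 in that of BMP2 with IgG and 30 in that of BMP2 with the antibody.

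Barx2 is a homeobox transcription factor of the Bar class. Dkk2 is a secreted protein that binds LRP co-receptors and modulates Wnt signalling. Ret is the receptor tyrosine kinase for ligands of the GDNF family, which it recognises together with a GFRA co-receptor. Nos2 is the inducible nitric oxide synthase. Fibroblasts make the collagen-rich matrix of connective tissue and differ in state between perivascular, interstitial and injured sites.

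The title of the study concerns activin A in acquired heterotopic ossification, the formation of cartilage and bone in soft tissue. Masses were collected 5 days after implantation, dissociated and profiled with droplet 3' RNA sequencing. All mice were of the outbred CD1 strain and all implants contained Matrigel, a basement membrane extract. The groups were Matrigel without BMP2, Matrigel with recombinant human BMP2 (a bone-inducing growth factor) in mice given pre-immune control IgG, and Matrigel with BMP2 in mice given an antibody that neutralizes activin A. The labels name no IgG for the first group and do not give the number, sex or age of the mice. Each group was 1 library, so no difference below has a replicate check, and every interval is a 95% interval for counting error alone. It does not cover variation between mice, masses or preparations.

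The 3 libraries held 9249, 6065 and 6113 barcodes and 44252421, 46317250 and 38163880 UMIs (Matrigel, IgG, antibody). Between 7 and 19 barcodes were shared by a pair of libraries, and no shared barcode was a member in both. Members were more deeply sequenced than the other eligible cells. Their median was 13447 UMIs in the Matrigel library against 8105 in the others, 20058 against 11637 with IgG, and 23223 against 11560 with the antibody. Levels are given in CPM, the UMIs of a gene per 1000000 UMIs of the summed cells. The rule fixes collagen UMIs, so the fibroblast label was checked on genes outside it. Pdgfra, a receptor typical of fibroblasts, was at 185, 168 and 219 CPM in members, 277, 187 and 236 CPM in the other eligible cells, and 1.64, 1.69 and 0.553 CPM in macrophage-gated cells. Dcn (decorin) was at 3332, 3388 and 2588 CPM in members, Lum (lumican) at 885, 665 and 728 CPM and Prrx1, a mesenchymal transcription factor, at 779, 640.2 and 637.5 CPM. All 12 markers of the fibroblast list were detected in every library, but the list includes collagens that the rule fixes. Of its 9 genes measured outside the rule, 3, 6 and 1 had a ratio of members to other eligible cells above 1. Pdgfrb was lower in Matrigel members, at 35.3 CPM against 150.5 CPM in others. The macrophage-gated cells had under 0.3% collagen UMIs, a UMI of Csf1r or Ptprc and at least 5 UMIs of C1qa, C1qb, C1qc and Lyz2 together.

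Members made up 16.5% of eligible cells in the Matrigel library (336 of 2043, exact interval 14.9 to 18.1%). The share was 5.92% in the IgG library (31 of 524, 4.055 to 8.293%) and 9.40% in the antibody library (30 of 319, 6.435 to 13.15%). Of all kept cells they were 3.64%, 0.520% and 0.503%. Because detection grows with depth, each eligible cell was also thinned to 2000 UMIs, which left out 161, 65 and 36 cells. Then 4.41% of the Matrigel eligible cells (83 of 1882) carried 2 or more rule genes, against 0.218% (1 of 459) with IgG and 0.707% (2 of 283) with the antibody. Macrophage-gated cells, which should lack Barx2, Dkk2 and Ret, gave 0 of 6028, 1 of 3025 and 0 of 3069 unthinned, at medians of 3126, 3755 and 4944 UMIs. A count of 0 of 6028 allows a share of up to 0.0498%, taken as 3 counts of the total. Activated macrophages can make Nos2, which was found in 0.0664%, 0.496% and 0.326% of those cells.

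As a share of all collagen cells, members were 15.5%, 1.99% and 4.615%. Eligible cells were 94.5% of collagen cells in the Matrigel library, 33.7% with IgG and 49.1% with the antibody. The Inhba gate alone removed 2.405%, 56.6% and 46.9% of collagen cells. When every collagen cell was counted regardless of those gates, 17.5% carried 2 or more rule genes in the Matrigel library, 6.04% with IgG and 24.8% with the antibody (161 of 650, 21.5 to 28.3%). After thinning, these shares were 5.45%, 0.473% and 3.45%. The order of the Matrigel and antibody libraries therefore differed between the unthinned and the thinned share of collagen cells.

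**Figure D1:**
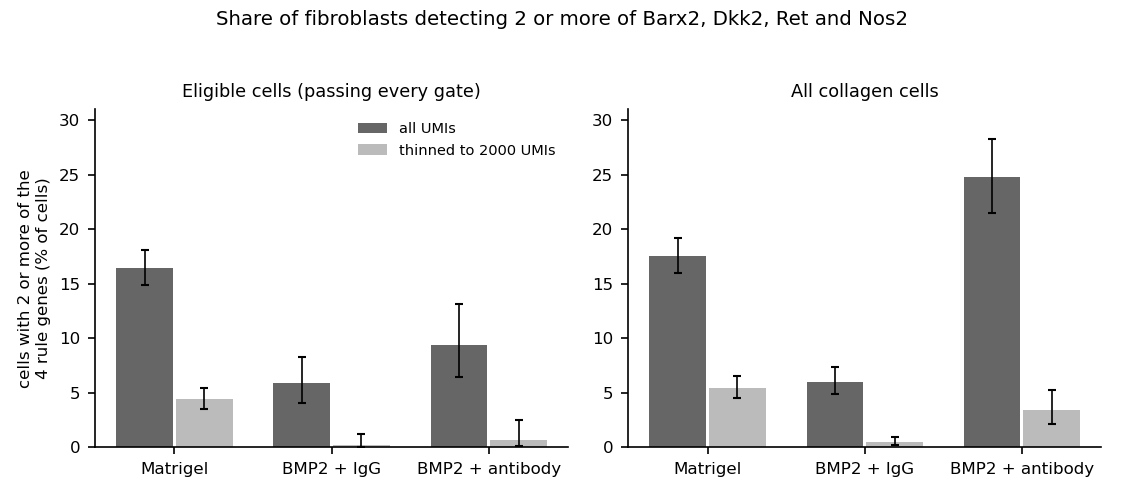
Share of eligible cells (left) and of all collagen cells (right) with 2 or more of Barx2, Dkk2, Ret and Nos2, in percent, per library, from all UMIs (dark) and after thinning to 2000 UMIs (light); bars are single libraries and lines are exact 95% intervals. Among eligible cells the Matrigel library is highest at 16.5%, and among all collagen cells the antibody library is highest before thinning, at 24.8%, and the Matrigel library after it, at 5.45% against 3.45%.

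The combination of rule genes differed between the libraries. In the Matrigel library the most frequent combination was Barx2 with Dkk2 and Ret (78 members), followed by all 4 genes (67) and Dkk2 with Ret (46). In the IgG library it was Barx2 with Nos2 (12 of 31), and no member had all 4. In the antibody library it was Barx2 with Ret and Nos2 (8 of 30), then Barx2 with Ret (7). Dkk2 was detected in 74.7% of Matrigel members, 32.3% of IgG members and 23.3% of antibody members, and Nos2 in 42.6%, 58.1% and 60.0%. Members with Dkk2 and Ret were thus most frequent in the Matrigel library. There 190 members carried 3 or more of the genes, against 3 and 11 members in the libraries with BMP2.

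Levels of the rule genes chose the cells and are given as a description. Barx2, on chromosome 9 (chr9:31846044-31913462, mm10, minus strand), was at 242 CPM in Matrigel members, 134 in IgG members and 192 in antibody members, against 14.5, 23.5 and 24.4 CPM in the other eligible cells. Dkk2 (chr3:132085292-132180304, plus strand) was at 188, 61.8 and 18.1 CPM in members. In eligible cells with exactly 1 rule gene, outside the rule, it was at 108.8, 26.98 and 23.6 CPM. With the antibody its level was therefore not higher in members than in those cells. Ret (chr6:118151745-118197718, minus strand) was at 159, 29.4 and 41.5 CPM in members and 23.71, 10.12 and 17.48 CPM in those cells. Nos2 (chr11:78920787-78960254, plus strand) was at 119, 107 and 154 CPM in members and 4.332, 47.22 and 7.868 CPM in those cells. Barx2, Dkk2 and Ret were highest in Matrigel members, and Nos2 in antibody members. All 4 are protein-coding genes, and the library chemistry reads RNA from the 3' end.

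At the edge of the rule, the 146 Matrigel cells with exactly 2 rule genes had 178 CPM of Barx2 and 82.4 CPM of Nos2. The 431 cells with exactly 1, just outside it, had 46.5 and 4.33 CPM. Dkk2 differed little across this edge, at 128 CPM inside and 109 CPM outside. With the antibody it was at 23.3 CPM in cells with exactly 2 rule genes and 23.6 CPM with exactly 1. With IgG it was at 55.95 and 26.98 CPM. At 2000 UMIs Dkk2 was detected in 25.45% of Matrigel members and 5.168% of the other eligible cells. Among those others, cells with 2 or more UMIs of Pi16 were at 5.822%.

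At equal depth, Matrigel cells with Barx2 carried Dkk2, Ret and Nos2 more often than those without. Among eligible cells thinned to 2000 UMIs, Dkk2 was detected in 22% of the 150 cells with Barx2 (15.65 to 29.49%) and in 7.62% of the 1732 without. Ret was found in 16.7% of cells with Barx2 and 4.33% of those without. Barx2 was found in 52.1% of the 48 cells with Nos2 (37.2 to 66.7%) and in 6.82% of those without. For Nos2 with Dkk2 or Ret the intervals overlapped. Dkk2 was detected in 10.4% of cells with Nos2 (3.47 to 22.7%) and 8.72% of those without, and Ret in 12.5% (4.73 to 25.25%) and 5.125% (4.16 to 6.24%). Macrophage-gated cells thinned alike gave 0.144% for Barx2 and for Dkk2. The BMP2 libraries held too few positive cells after thinning for this comparison.

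Levels of genes outside the rule differed with the number of rule genes in a cell, but not alike in the 3 libraries. Aqp1 (chr6:55336432-55348555, plus strand), a plasma membrane water channel, was at 2.27 CPM in Matrigel eligible cells with no rule gene, 29.2 with 1, 241 with 2, 427 with 3 and 396 CPM with all 4. Tnfaip6 (chr2:52038009-52056686, plus strand), which encodes the hyaluronan-binding protein TSG-6, was at 40.65, 77.1, 268, 476 and 599 CPM. With IgG, Aqp1 did not rise at each step, at 7.61 CPM with no rule gene, 43.85 with 1 and 22.7 with 2. Pi16, a gene of fibroblast progenitors, was at 1478, 763 and 165 CPM with 0, 1 and 2 rule genes with Matrigel. At the same steps it was at 218.5, 624 and 502 CPM with IgG, and at 1574, 847 and 440.5 CPM with the antibody. Matrigel cells with more rule genes were also deeper, with medians from 7521 UMIs (no rule gene) to 15618 (all 4). CPM is scaled to the summed UMIs of each step, and the part of depth in these steps was not tested.

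**Figure D2:**
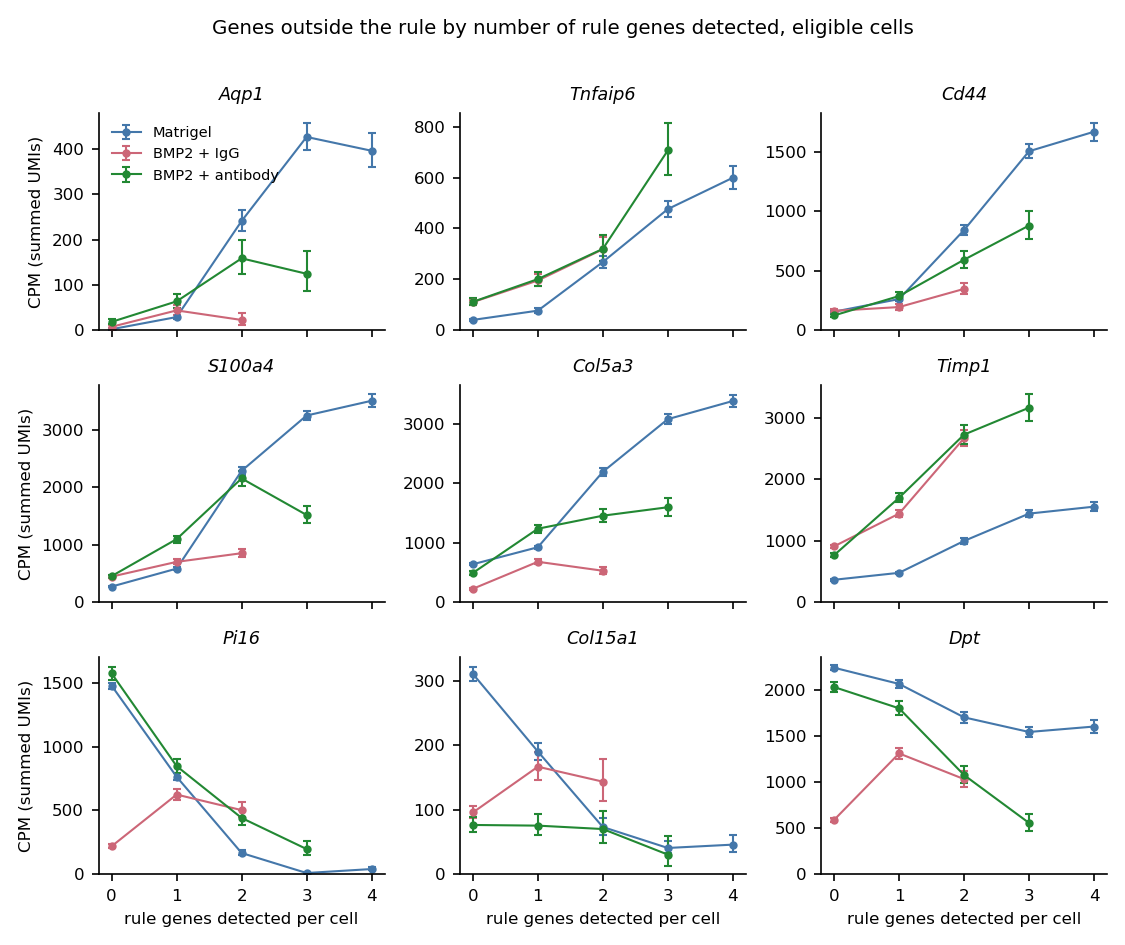
CPM of summed UMIs (vertical axes, each from 0) of 9 genes outside the rule against the number of rule genes detected per eligible cell, per library, for steps of 10 or more cells; lines are exact Poisson 95% intervals. In the Matrigel library Aqp1 goes from 2.27 to 396 CPM and Pi16 from 1478 to 39.5 CPM between 0 and 4 rule genes.

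Against the other eligible cells, Aqp1 had the highest ratio in Matrigel members among genes outside the rule with 50 or more CPM there. Its level was 350 CPM in members and 10.7 CPM in others with Matrigel, 51.5 and 16.6 CPM with IgG, and 187 and 33.0 CPM with the antibody. The ratios were 32.9 (27.8 to 39.1), 3.10 (2.04 to 4.59) and 5.65 (4.396 to 7.265). The Matrigel ratio was 11.25 with at least 3 rule genes required and 19.95 without Nos2 in the rule, and the antibody ratio 10.53 with collagens at 3% or more of UMIs (each with 1 UMI added to both sums). In summed CPM Aqp1 was higher in members of each library, but in IgG members 5 cells held 91.4% of its UMIs. At 2000 UMIs Aqp1 was detected in 37.7% of Matrigel members and 1.42% of others, with 0.247% in macrophage-gated cells (69.6%, 3.52% and 0.431% unthinned). With IgG, thinned shares were close, at 3.23% of members (1 of 31, 0.0816 to 16.7%) and 2.57% of others (1.29 to 4.55%). With the antibody they were 20.7% of members (6 of 29, 7.99 to 39.7%) and 3.94% of others (1.90 to 7.12%). Tnfaip6 was at 428 and 52.0 CPM, 347 and 132 CPM, and 441 and 140 CPM in members and others, a ratio of 8.22 (7.555 to 8.958), 2.64 (2.27 to 3.05) and 3.14 (2.73 to 3.61). Both had higher summed CPM in members of all 3 libraries. Tnfaip6 with IgG, however, was at 1.975-fold with collagens at 3% or more of UMIs, under the threshold of 2 used below.

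The sequence upstream of Tnfaip6 is shown because its RefSeq promoter window held a match to TGANTCA, a motif bound by AP-1 factors, whereas those of Aqp1 and Dkk2 did not. RefSeq windows (GRCm38.p6) were searched over the 250 bases before the annotated start on both strands, and 6.75% of all 32851 windows held this motif, against 2 of the 15 genes named below as higher in members. The run at chr2:52037863-52038008, plus strand, stops where GENCODE M21 places an exon, and capitals mark the match.
Tnfaip6: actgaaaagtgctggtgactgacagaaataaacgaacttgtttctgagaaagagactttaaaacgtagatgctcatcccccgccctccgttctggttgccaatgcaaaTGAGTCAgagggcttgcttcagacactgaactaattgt
A match is a description of letters and not a bound site.

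A gene was called higher or lower when the ratio was at least 2 either way with an interval that left out 1, among genes with 20 or more UMIs in the compared sums. In the Matrigel library 432 genes were called higher in members, 3.42% of the 12633 tested, and 1343 lower, 10.6%. In the IgG library 364 were higher (3.26%) and 518 lower (4.64%) of 11154. In the antibody library 242 were higher (2.33%) and 562 lower (5.41%) of 10387. Of 10233 genes tested in all libraries, 261 were higher in Matrigel members, and 21 of these were called higher in all 3, while 10 and 5 went the other way with IgG and with the antibody. Of 817 genes lower in Matrigel members, 66 were called lower in all 3, while 30 and 7 went the other way. The selection used genes of the same cells, so these differences describe the members and test nothing.

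The 15 genes highest in members of every library, ranked by the least extreme library, held surface, matrix and cytoskeletal genes. Beside Aqp1 and Tnfaip6 they were Dmkn, S100a4, Timp1, S1pr3, Cd44, Pdlim1, Crip2, Mcub, Atp2b4, Col5a3, Limk1, Mt1 and Cav1. Cd44, the cell surface receptor for hyaluronan, was at 1297 and 189 CPM (Matrigel members and others), 397 and 171 CPM (IgG) and 727 and 177 CPM (antibody). In summed CPM, members were above others in each library, by 6.86-fold (6.55 to 7.18), 2.32-fold (2.02 to 2.66) and 4.11-fold (3.66 to 4.61). In thinned cells with IgG, Cd44 was detected in 38.7% of members (12 of 31, 21.85 to 57.8%) and 27.1% of others (22.95 to 31.6%). These intervals overlapped. They did not overlap with Matrigel (74.25% and 22.6%) or with the antibody (48.3%, 29.45 to 67.5%, and 20.5%, 15.7 to 26.0%). S100a4, a calcium-binding protein of motile fibroblasts, was at 2953 and 369 CPM, 1249 and 510 CPM, and 2111 and 661 CPM. Col5a3, a minor fibrillar collagen chain, was at 2817 and 726 CPM, 740 and 338 CPM, and 1507 and 729 CPM. Timp1, an inhibitor of matrix metalloproteinases, was at 1303 and 400 CPM, 2530 and 1042 CPM, and 2887 and 1065 CPM. The sphingosine-1-phosphate receptor gene S1pr3 was 2.40, 3.20 and 3.40-fold higher in members. Mt1, a metallothionein, reached 1.99-fold with Matrigel and Cav1, a caveolar coat protein, 1.96-fold with IgG, both just under the threshold of 2. Several calls of these 15 genes were lost under other settings. With collagens at 3% or more of UMIs, Timp1 and Crip2 with IgG were at 1.71-fold and 1.51-fold, and without Nos2 in the rule S1pr3, Mt1 and Timp1 with the antibody were at 1.64-fold, 1.36-fold and 1.98-fold.

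Among the 10 genes lowest in members of every library were secreted growth factors and modulators. Gas6, the ligand of the TAM receptor kinases, was at 45.4 CPM in Matrigel members and 479 CPM in others, 105 and 564 CPM with IgG, and 81.6 and 208 CPM with the antibody. That was 10.55-fold, 5.40-fold and 2.55-fold lower in members. Mdk (midkine), Tgfb3, Igfbp3, Pi15, Thbs1, Pdgfrl, Pth1r, Serpine2 and 1500015O10Rik were the others. Tgfb3, a TGF-beta ligand, was 6.36-fold lower with Matrigel, 2.82-fold with IgG and 3.01-fold with the antibody. With the antibody, Gas6 was 1.76-fold lower without Nos2 in the rule and Thbs1 1.31-fold lower as a mean over cells, neither past the threshold. In the BMP2 libraries 5 cells held between 53.85% and 100% of the member UMIs of these 10 genes, so those values rest on few cells.

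**Figure D3:**
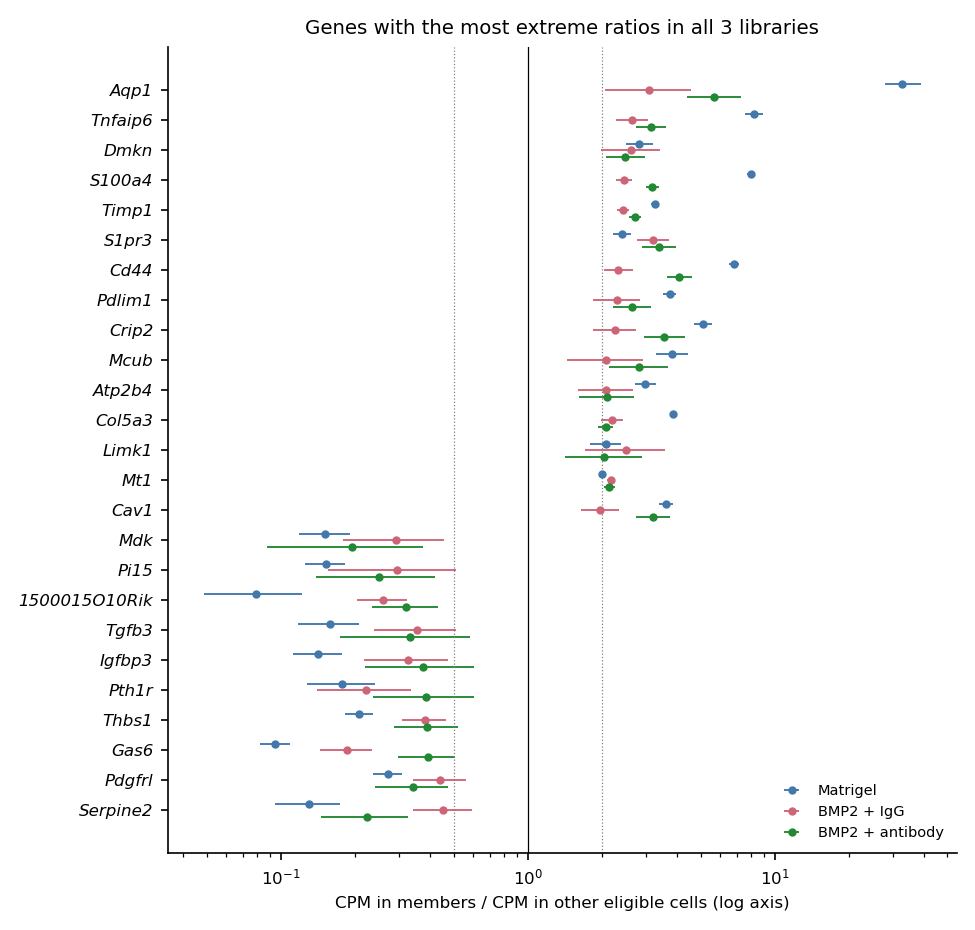
Ratio of CPM in members to CPM in other eligible cells (horizontal log axis) for the 15 highest and 10 lowest genes in every library; points are single libraries and lines exact 95% intervals, with dotted lines at 2-fold. Matrigel points lie farthest from 1 for Aqp1 (32.9), S100a4 (7.996) and Cd44 (6.86).

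In the Matrigel library alone, a second ranking chosen after the values were seen added further genes. F2rl1, the protease-activated receptor PAR2, was at 146 CPM in Matrigel members and 8.24 CPM in others, a ratio of 17.8 (14.6 to 21.8). It was at 17.7 CPM in IgG members (12 UMIs) and had no UMI in antibody members, which is at least 4.54-fold lower than with IgG against 3 counts over the group. Adamts14, a procollagen N-proteinase, was 5.40-fold higher with Matrigel (161 and 29.8 CPM), 4.21-fold with IgG and 1.68-fold with the antibody. Cdk6, a G1 cyclin-dependent kinase, was 5.76, 2.84 and 1.85-fold higher.

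The lowest genes of that ranking included Mgp, Sfrp1, Eln, Cyp26b1 and Wisp2. Eln, which encodes elastin, was at 345 CPM in Matrigel members and 5333 CPM in others, 712 and 1522 CPM with IgG, and 104 and 1430 CPM with the antibody. Sfrp1, a secreted Wnt antagonist, was 21.7-fold lower in Matrigel members (29.5 and 641 CPM), but was at 411 and 662 CPM with IgG and at 216 and 227 CPM with the antibody, neither of which was called. Mgp, an inhibitor of matrix calcification, was at 7.22 and 322 CPM with Matrigel. Pi16, a marker of fibroblast progenitors, was at 74.3 CPM in Matrigel members and 1256 in others and at 337 and 1341 CPM with the antibody. With IgG it was at 443 CPM in members and 320 CPM in others, the opposite order. With at least 3 rule genes required, Pi16 was 55.45-fold lower and Eln 44.2-fold lower in Matrigel members. Among the Matrigel eligible cells that were not members, those with 2 or more UMIs of Pi16 had 0.398 CPM of Aqp1 and 110.5 CPM of Cd44, and the rest with 2 or more UMIs of Col15a1 had 10.3 and 238 CPM.

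In the list of GDNF ligands, co-receptors, adaptors and feedback genes, 1 of 19 measured genes was higher and 1 lower in Matrigel members, with a median log2 ratio of -0.21 against -0.05 over all genes. It was 1 and 1 of 17 with IgG (0.02, as over all genes) and 2 and 2 of 16 with the antibody (0.01, against 0.03). The gene called higher with Matrigel was Gfra2 (chr14:70890120-70979838, plus strand), the co-receptor for neurturin. It was at 164 CPM in members and 43.6 in others with Matrigel, and 66.2 and 37.3 CPM with IgG. With the antibody it was at 110 and 37.2 CPM. It was called with Matrigel and with the antibody. In thinned cells Gfra2 was detected in 31.1% of Matrigel members and 6.91% of others. With IgG the order was opposite, at 3.23% of members (1 of 31, 0.0816 to 16.7%) and 7.01% of others (4.78 to 9.855%). With the antibody it was 13.8% of members (4 of 29, 3.89 to 31.7%) and 5.12% of others (2.75 to 8.59%). The intervals overlapped with IgG and with the antibody. The adaptor gene Grb10 was at 342 and 397 CPM and Ncam1, an adhesion molecule that can act as a GDNF receptor, at 106 and 199 CPM with Matrigel, and neither was called.

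Wnt pathway genes other than Dkk2 were mostly lower or uncalled in members. With Matrigel 0 of 36 measured genes were higher and 13 lower (median log2 ratio -0.73), with IgG 1 and 7 of 32 (-0.30), and with the antibody 0 and 6 of 30 (-0.39). The secreted antagonists Sfrp4 and Sfrp2 were at 189 and 570 CPM and at 198 and 569 CPM in Matrigel members and others. Ctnnb1, which encodes beta-catenin, was at 187 and 194 CPM. In the arginine and nitric oxide list 0 of 16 genes were higher and 6 lower with Matrigel (-0.60), 1 and 2 of 14 with IgG (0.15), and 0 and 1 of 14 with the antibody (-0.05).

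Genes of the hyaluronan matrix split. With Matrigel 3 of 13 were higher and 4 lower (median log2 ratio 0.05), with IgG 2 and 2 of 15 (-0.01), and with the antibody 3 and 3 of 12 (0.21). Over all genes the medians were -0.05, 0.02 and 0.03, with 3.42%, 3.26% and 2.33% called higher and 10.6%, 4.64% and 5.41% lower. Cd44 and Tnfaip6 were called higher in every library, while Vcan, a hyaluronan-binding proteoglycan, was at 634 and 487 CPM, 837 and 809 CPM, and 766 and 527 CPM and was not called. Itih5, which encodes an inter-alpha-trypsin inhibitor heavy chain, was at 132 and 555 CPM with Matrigel.

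Hypoxia and glycolysis genes were higher in members of the Matrigel and antibody libraries. With Matrigel 14 of 21 were called higher and 0 lower (median log2 ratio 1.14), and with the antibody 10 higher and 1 lower (0.96). With IgG 0 were higher and 1 lower (0.02). Ldha, lactate dehydrogenase A, was at 1748 CPM in Matrigel members and 854 in others, 1479 and 1738 CPM with IgG, and 1744 and 841 CPM with the antibody. Gapdh was at 2621 and 1161 CPM, 2547 and 2512 CPM, and 2787 and 1454 CPM. Pgk1, phosphoglycerate kinase, was at 1203 and 524 CPM, 1036 and 1195 CPM, and 1070 and 550 CPM. For these 3 genes the members of the 3 libraries differed by under 1.5 times, and the other eligible cells were highest with IgG.

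Interferon-stimulated genes were low in Matrigel members. There 20 of 22 genes were called lower and 0 higher (median log2 ratio -1.93), against 1 higher and 1 lower of 21 with IgG (0.22) and 2 higher and 4 lower of 21 with the antibody (-0.41). Isg15, a ubiquitin-like protein, was at 14.7 CPM in Matrigel members and 108 in others, 124 and 102 CPM with IgG, and 119 and 132.5 CPM with the antibody. In antibody members 5 cells held 96.7% of its UMIs. Bst2, which encodes tetherin, was at 44.4 and 247 CPM, 182 and 144 CPM, and 132 and 279 CPM. B2m, the light chain of MHC class I, was at 446 and 964 CPM, 840 and 611 CPM, and 570 and 997 CPM. Of the complement genes, with Matrigel 0 of 13 were higher and 8 lower (-1.83), with IgG 1 and 2 (0.10), and with the antibody 0 and 7 (-1.025). C3 was at 101 and 907 CPM, 965 and 707 CPM, and 711 and 1878 CPM.

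Promoter windows of 2 glycolysis and 2 interferon genes are shown because one list was mostly higher and the other mostly lower in Matrigel members. Of the 19 hypoxia and glycolysis genes with a RefSeq window, 10 (52.6%) held ACGTG, the core of the hypoxia response element, within 250 bases, against 16.6% of all 32851 windows. Of 16 interferon-stimulated genes with a window, 10 (62.5%) held GAAANNGAA, a core of interferon response elements, against 7.13% of all windows. These shares describe the lists and hold no measurement in members. Of the 15 genes named above as highest in members of every library, 5 held ACGTG and 0 held GAAANNGAA. Both strands were searched, and capitals mark the matches. The runs are chr7:46845554-46845803 (plus strand), chrX:106186850-106187099 (plus), chr4:156200819-156201068 (minus) and chr19:34640744-34640870 (plus, the part outside GENCODE M21 exons), all GRCm38.p6. In Ldha the matches overlap on both strands within the palindrome CACGTG, so 5 matches fall in 3 places.
Ldha: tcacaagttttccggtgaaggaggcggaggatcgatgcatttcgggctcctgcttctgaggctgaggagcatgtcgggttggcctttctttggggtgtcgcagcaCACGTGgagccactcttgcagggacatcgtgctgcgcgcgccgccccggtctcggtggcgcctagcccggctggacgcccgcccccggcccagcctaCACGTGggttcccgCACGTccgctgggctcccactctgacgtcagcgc
Pgk1: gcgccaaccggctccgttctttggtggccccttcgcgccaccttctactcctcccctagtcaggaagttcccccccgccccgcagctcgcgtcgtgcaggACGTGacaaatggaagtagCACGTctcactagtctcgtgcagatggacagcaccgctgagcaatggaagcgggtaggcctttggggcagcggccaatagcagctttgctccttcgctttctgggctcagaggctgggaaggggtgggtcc
Isg15: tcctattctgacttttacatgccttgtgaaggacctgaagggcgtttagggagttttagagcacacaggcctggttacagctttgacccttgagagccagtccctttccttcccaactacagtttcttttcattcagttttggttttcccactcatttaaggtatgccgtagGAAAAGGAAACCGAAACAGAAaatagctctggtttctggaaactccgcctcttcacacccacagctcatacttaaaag
Ifit1: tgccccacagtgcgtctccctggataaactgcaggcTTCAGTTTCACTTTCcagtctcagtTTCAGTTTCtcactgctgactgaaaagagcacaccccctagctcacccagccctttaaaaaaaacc
The 5 windows printed are RefSeq reference sequence and carry no measurement of binding in these cells.

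Genes of other fibroblast states were often lower in Matrigel and antibody members. In the list of Col15a1 perivascular-type genes 0 were higher and 14 lower of 17 with Matrigel (median log2 ratio -2.30), 0 and 2 of 17 with IgG (-0.19), and 0 and 7 of 17 with the antibody (-0.70). Cxcl12, the chemokine that retains CXCR4-positive cells, was at 103 and 391 CPM with Matrigel, 225 and 235 CPM with IgG, and 148 and 242 CPM with the antibody. In the fibroblast progenitor list 0 were higher and 10 lower of 22 with Matrigel (-0.88), 3 and 0 with IgG (0.49), and 0 and 12 with the antibody (-1.19). Dpt (dermatopontin), a matrix protein, was at 1617, 1127 and 862 CPM in members, against 2187, 769 and 1958 CPM in others. BMP-SMAD1/5 targets were lower too, with 0 higher and 10 lower of 13 with Matrigel (-1.31), 1 and 5 of 14 with IgG (-0.72, or -0.54 with zero sums set to 3 counts), and 0 and 4 of 11 with the antibody (-0.48). Id3, a BMP-induced inhibitor of DNA binding, was called lower in each library at 85.6 and 294 CPM, 180 and 478 CPM, and 222 and 486 CPM.

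Chondrogenic genes were lower in the BMP2 members than in the other eligible cells, and the Col2a1 gate applied to both. With Matrigel 1 of 9 was higher and 3 lower (median log2 ratio -0.21). With IgG 0 of 18 were higher and 14 lower (median log2 ratio -2.21, or -1.92 with zero sums set to 3 counts), and with the antibody 0 and 9 of 13 (-1.79, or -1.03). Sox9, the master regulator of cartilage, was at 26.4 and 62.65 CPM with Matrigel, 104.5 and 306 CPM with IgG, and 36.3 and 76.45 CPM with the antibody. SMAD2/3 targets gave 3 higher and 3 lower of 17 with Matrigel (-0.12), 1 and 3 with IgG (0.10), and 2 and 2 with the antibody (0.04). Hox genes, which carry positional identity, gave 0 higher and 1 lower of 24 with Matrigel, 0 and 3 of 21 with IgG, and 0 and 0 of 17 with the antibody.

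**Figure D4:**
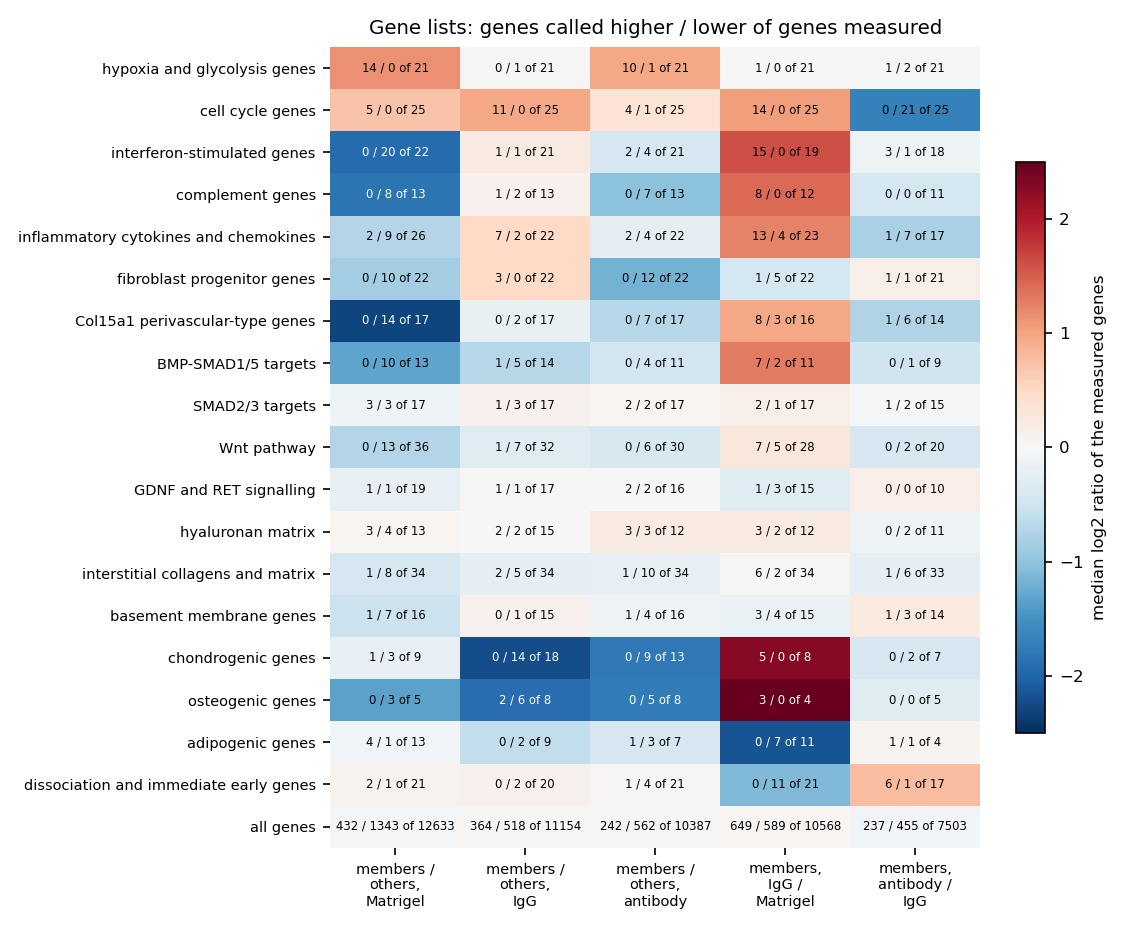
Gene lists (rows) in 5 comparisons (columns); colour is the median log2 ratio of the measured genes and each cell gives the genes called higher / lower of those measured, with all genes in the last row. Interferon-stimulated genes stand at 0 / 20 of 22 in Matrigel members against others and at 15 / 0 of 19 in IgG members against Matrigel members.

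Members of the IgG library were compared with those of the Matrigel library, the comparison of BMP2 with IgG against Matrigel alone. The IgG members had higher interferon, complement, chemokine and cell cycle genes, and lower Aqp1, F2rl1 and Cd44. Of 10568 genes tested, 649 were higher (6.14%) and 589 lower (5.57%). Interferon-stimulated genes gave 15 higher and 0 lower of 19 (median log2 ratio 1.61, against 0.05 over all genes), and complement genes 8 and 0 of 12 (1.41). Cytokines and chemokines gave 13 and 4 of 23 (1.25), cell cycle genes 14 and 0 of 25 (1.05) and BMP-SMAD1/5 targets 7 and 2 of 11 (1.29). Dissociation and immediate early genes gave 0 higher and 11 lower of 21 (-1.11), and adipogenic genes 0 and 7 of 11 (-2.17, or -1.09 with zero sums set to 3 counts). As the libraries differed in the combination of rule genes, in BMP2 and IgG and as preparations, these cannot be told apart.

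Ccl11, the eosinophil chemoattractant eotaxin, was at 69.5 CPM in Matrigel members, 865 in IgG members and 218 in antibody members, and at 105, 149 and 237 CPM in the other eligible cells. Serpina3g, a serine protease inhibitor, was at 4.75, 135 and 49.2 CPM in members and 4.05, 99.0 and 44.0 CPM in others, so both kinds of cell were higher with IgG by like factors (28.5 and 24.45). Il13ra2, the decoy receptor for interleukin-13, was at 2.06, 75.1 and 44.1 CPM in members and 3.41, 16.5 and 16.5 CPM in others. Its ratio of IgG to Matrigel in members was 7.53 times that in others (3.52 to 16.1). Car4, a membrane carbonic anhydrase, was at 1.65, 169 and 108 CPM in members. Iigp1, an interferon-inducible GTPase, was at 3.71, 82.4 and 60.9 CPM in members and 51.4, 84.9 and 72.5 CPM in others. The members of the Matrigel library were therefore the low group for Iigp1.

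IgG members were few, and 5 of the 31 cells held 37.2% of the UMIs of a broadly expressed gene such as Gapdh. For Ccl11, Serpina3g, Il13ra2, Car4 and Iigp1 those shares were 80.4%, 79.35%, 88.2%, 78.3% and 80.4%. Acan, the cartilage proteoglycan aggrecan, had 97 UMIs in IgG members and 0 in Matrigel members, at least 231-fold higher against 3 counts over the group, but 5 cells held 99.0% of its UMIs. Spp1 (osteopontin) was 23.7-fold higher with 99.45% in 5 cells, Col6a5 121-fold higher on 3 Matrigel UMIs (39.2 to 607) with 98.0%, and Fmod, a tendon proteoglycan, 78.5-fold with 80.4%. Smpd3 was 22.7-fold higher with 97.1% in 5 cells and 1500015O10Rik 25.5-fold with 72.0%.

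Genes lower in the IgG members included several typical of the Matrigel members. Aqp1 was 6.80-fold lower (4.87 to 9.80), F2rl1 8.28-fold lower (4.71 to 16.1) and Cd44 3.26-fold lower. Islr2 was at 155 CPM in Matrigel members, 14.7 in IgG members and 62.2 in antibody members, and at 92.55, 10.8 and 69.45 CPM in others, so it differed alike in both kinds of cell. Stmn4, a microtubule regulator, was at 79.65, 7.36 and 29.8 CPM in members, and Il1rl1, the interleukin-33 receptor, at 68.9, 8.83 and 20.7 CPM. Rab7b, Mirg, Dlk1 and Lrrc32 were 10.8, 8.86, 8.61 and 6.81-fold lower with IgG. Car3 and Fabp4, adipocyte genes, were lower as well, but Car3 came from 1 Matrigel member (1 UMI in IgG members, ratio 57.1, 10.2 to 2259) and 5 cells held 99.5% of the Fabp4 UMIs in Matrigel members.

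Members of the antibody library were compared with those of the IgG library, the comparison of activin A neutralization with control IgG under BMP2. It shares the IgG library with the comparison before. The antibody members had lower cell cycle genes and lower Ccl2, Igf1 and Eln, and higher Aqp1 and Col18a1. Of 7503 genes tested, 237 were higher (3.16%) and 455 lower (6.06%). Cell cycle genes gave 0 higher and 21 lower of 25 (median log2 ratio -1.70, against -0.07 over all genes). Cytokines and chemokines gave 1 and 7 of 17 (-0.81), and dissociation and immediate early genes 6 and 1 of 17 (0.77). Interferon-stimulated genes gave 3 and 1 of 18 (-0.12) and hypoxia and glycolysis genes 1 and 2 of 21 (-0.05).

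Top2a, a topoisomerase of dividing cells, was at 122 CPM in Matrigel members, 338.5 in IgG members and 104 in antibody members, and at 84.4, 132 and 49.85 CPM in others. Mki67, the Ki-67 antigen, was at 100.1, 291 and 66.1 CPM in members. At 2000 UMIs, 41.9% of IgG members (13 of 31, 24.55 to 60.9%) had 2 or more UMIs of Mki67, Top2a, Cdk1, Ccnb1, Cenpf and Birc5 together, against 14.25% of the other eligible cells. The shares were 12.9% and 6.91% with Matrigel, and 10.3% (3 of 29, 2.186 to 27.35%) and 6.299% with the antibody. The member share was above that of others in each library, and the intervals did not overlap with Matrigel or with IgG. They overlapped with the antibody, where others were at 3.64 to 10.0%. Thinning equalizes depth after the choice of members, which used full counts and took deeper cells. The part of this choice in the cycling shares was not tested.

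Ccl2, a monocyte chemoattractant, was at 587 CPM in Matrigel members, 736 in IgG members and 115 in antibody members, 6.38-fold lower with the antibody than with IgG (5.08 to 8.09). In others it was at 322, 261.5 and 181.5 CPM, and with collagens at 3% or more of UMIs Ccl2 was 13.64-fold lower in members. Eln was 6.87-fold lower (5.41 to 8.82) with the antibody in members and 1.06-fold lower in others. Igf1, an insulin-like growth factor, was at 27.65, 103 and 16.85 CPM in members. In IgG members 5 cells held 83.6% of Ccl2, 73.55% of Eln and 72.9% of Igf1 UMIs. Col18a1, a basement membrane collagen, was at 132, 22.1 and 130 CPM in members, 5.87-fold higher with the antibody than with IgG (3.39 to 10.9). Aqp1 was 3.62-fold higher (2.49 to 5.40) and 1.99-fold higher in others, which makes the ratio 1.82 times as large in members (1.16 to 2.88).

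The other named genes of this comparison were carried by few cells. Saa3 was 46.9-fold lower with the antibody, but 5 cells held 100% of its UMIs in IgG members, and likewise 94.6% of Lif, 94.4% of Pgf, 96.1% of Cilp and 100% of G0s2 UMIs. Lif was 42.0-fold lower (7.09 to 1704) and Hist1h1b 70.4-fold lower (12.2 to 2826), each with 1 UMI with the antibody, and Fxyd6, Pgf, G0s2 and Cilp were 11.9, 10.2, 9.65 and 7.24-fold lower. Mrgprg had 47 UMIs in the antibody members, all in 1 cell, and 0 with IgG, at least 13.8-fold higher against 3 counts. Gm10320, Dlk1, Enpp1, Islr2, Pdcd4, Hspa1a and Ifit1 were 8.485, 6.29, 5.28, 4.23, 4.23, 4.14 and 4.11-fold higher, with Dlk1 in 2 antibody members only. With mixed cells left out, Ifit1 was 1.07-fold higher and no longer called.

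Collagen cells that carried 2 or more rule genes but were over the Inhba, Acta2 or Col2a1 gate were not members. There were 43 in the Matrigel library, 63 with IgG and 131 with the antibody, where they outnumbered the 30 members. Over the Inhba gate were 30, 61 and 128 of them. In the antibody library their Nos2 level was 209 CPM against 154 in members, Ret 55.1 against 41.5, Aqp1 348.5 against 187, Cd44 1018 against 727 and Tnfaip6 593 against 441 CPM. Barx2 was lower, at 99.8 against 192 CPM. Inhba, the gene for the activin A subunit, was at 1515 CPM in these cells and 24.6 CPM in members, as the gate fixes. In the Matrigel library the gated cells were near members in Aqp1 (356 against 350 CPM), Tnfaip6 (425 against 428), Cd44 (1258 against 1297) and F2rl1 (167 against 146). Barx2 was lower there, at 151 against 242 CPM, and Ret at 92.9 against 159 CPM. With IgG, Aqp1 was at 169 against 51.5 CPM, Cd44 at 561 against 397, Tnfaip6 at 356 against 347 and Barx2 at 59.4 against 134 CPM. High Aqp1, Tnfaip6 and Cd44 were therefore not particular to members.

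Pi16, Eln, Dpt and Isg15 were lower in these gated cells than in the members of the same BMP2 library. Pi16 was at 0.691 CPM in them and 337 CPM in members with the antibody, and at 1.10 and 443 CPM with IgG. Eln was at 6.22 and 104 CPM with the antibody and Dpt at 178 and 862 CPM. Isg15 was at 16.4 and 119 CPM with the antibody and at 8.25 and 124 CPM with IgG, against 14.7 CPM in Matrigel members. Acan was at 19.4 and 24.6 CPM with the antibody and at 309 and 143 CPM with IgG, against 603.5 and 1446 CPM in the gated-out cells with 0 or 1 rule genes. F2rl1 was at 2.77 and 0 CPM with the antibody and at 2.20 and 17.7 CPM with IgG.

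**Figure D5:**
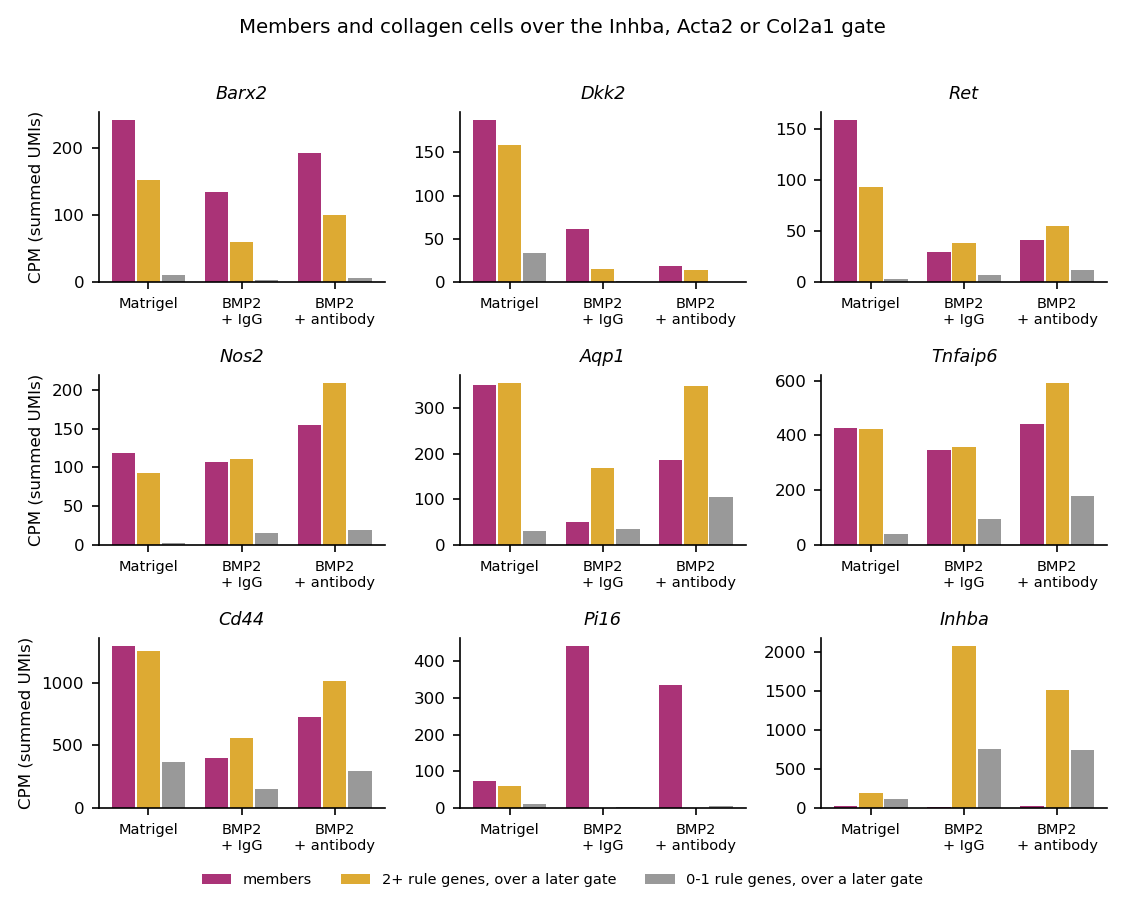
CPM of summed UMIs (vertical axes from 0) in members (purple), collagen cells with 2 or more rule genes over a later gate (yellow) and collagen cells with 0 or 1 rule genes over a later gate (grey), per library; single libraries, no error bars. With the antibody the yellow bar exceeds the purple for Nos2 (209 and 154 CPM) and Aqp1 (348.5 and 187 CPM), and Pi16 is at 0.691 and 337 CPM.

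Members of the Matrigel library varied among themselves, as shown by splits on Nos2 and on Dkk2 that were chosen after the values were seen. The 143 with Nos2 and the 193 without had Aqp1 at like levels (373 and 332 CPM) and Cd44 as well (1341 and 1261 CPM), at medians of 14254 and 12945 UMIs. Egln3, a prolyl hydroxylase induced in hypoxia, was 4.09-fold higher with Nos2 (169 and 41.3 CPM). Eln was 5.24-fold lower with Nos2 (103 and 539.5 CPM) and Thbs4, a thrombospondin of tendon matrix, 6.70-fold lower (26.9 and 180 CPM). The 251 members with Dkk2 had 1460 CPM of Cd44 and the 85 without 726 CPM, a ratio of 2.01 (1.87 to 2.17). Ccl8 was 5.66-fold lower with Dkk2 (87.3 and 494 CPM), although 5 cells held 59.0% of its UMIs. Nos2 was at 83.55 CPM with Dkk2 and 242 CPM without, which the rule helps to fix.

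Some marker lists of other cell types were above and others below their level in the other eligible cells. The 16 macrophage and monocyte markers summed to 941, 275 and 500.2 CPM in members, 1891, 657 and 898 CPM in other eligible cells and 42135, 38498 and 37512 CPM in macrophage-gated cells. Per cell the median sum was between 90.55 and 129 CPM and the highest 21495 CPM, and 26, 1 and 1 members had 0.5% or more of their UMIs from markers of other cell types. Of the 10 Schwann cell markers 6, 3 and 4 were detected, with sums of 5.365, 14.7 and 13.0 CPM in members and 45.9, 47.6 and 29.4 CPM in others and Sox10 at 0 in every library. Satellite cell and muscle markers summed to 175, 397 and 302 CPM in members and 188, 329 and 221 CPM in others, with 9, 5 and 5 of 13 detected and Pax7, Myod1 and Myog at 0 in members. The pericyte and smooth muscle list summed to 967, 581 and 1077 CPM in members and 425, 854 and 524 CPM in others. In Matrigel members 3 of its 6 measured genes were called higher and 3 lower. Ndufa4l2, a mitochondrial gene induced in hypoxia, gave 934, 511 and 1026 CPM of these sums, and Rgs5 and Higd1b were at 0. Perineurial and endoneurial markers summed to 437, 232.5 and 232 CPM in members and 287, 262.5 and 286 CPM in others. Mesothelial and epithelial markers summed to 38.4, 66.2 and 50.5 CPM in members and 28.3, 36.1 and 21.8 CPM in others, with 3, 2 and 2 of 11 detected and Krt8, Krt18 and Epcam at 0. With the antibody both of the 2 measured genes of this list were called higher in members. With IgG both of 2 had a ratio above 1 and neither was called, and with Matrigel 0 of 3 were called higher and 1 lower. Endothelial markers summed to 19.2, 72.1 and 47.95 CPM in members and 93.5, 49.75 and 114 CPM in others. Adipocyte markers summed to 23.3 CPM with Matrigel, where 5 of 6 were detected, against 8.10 CPM in others, and to 0 in IgG and antibody members. No doublet caller was run, and leaving out the cells with marker mixtures is an alternative in the closing section. In no result was the part of other cells tested.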

How the data were processed

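The deposited files hold raw UMI counts per gene and cell barcode, which the authors made with Cell Ranger 3.0.2 on mm10, per the submitters' processing notes. Annotation release and cell-calling settings were not stated there. From these counts, cells were selected by the rule above, and each class was represented by its summed UMIs per library, scaled to CPM. Ratios of sums have exact conditional 95% intervals, levels exact Poisson intervals and shares exact Clopper-Pearson intervals. They cover counting error only, and cells are not replicates, so no p-value is given. The calculations used Python 3.11.15, numpy 2.4.6, pandas 2.3.3, scipy 1.17.1 and matplotlib 3.10.9, and the calling step was checked on data with known ratios.

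The members and gene lists were chosen with earlier results of these data known. Named genes had 50 or more CPM and at least 10% of the level in macrophage-gated cells, and rule, sex-linked, mitochondrial and ribosomal protein genes were left out. The 15 highest and 10 lowest ratios in every library were taken, ranked by the least extreme library, and the 10 highest and 10 lowest between libraries. From each list up to 4 genes with the highest level in members were added. Isg15, Ifit1, Itih5 and Ctnnb1, the Matrigel-only ranking and the splits by Nos2 and Dkk2 were chosen after values were seen. Promoter windows come from RefSeq tables for GRCm38.p6 and gene positions from GENCODE M21. Alternatives changed the rule, depth, mitochondrial and collagen limits, cell mixtures, weighting, scaling and the count minimum.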

Additional observations from a re-analysis of the deposited data

Results flagged for a closer look

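Among the genes chosen for naming, 9 were called at least 2-fold higher in members than in other eligible cells of one library and at least 2-fold lower in another. Other genes were not screened in this way here. These differences between libraries were not tested, and most of the genes were carried by few cells. The log2 ratio in the Matrigel library minus that in the IgG library was -6.08 for Smpd3, a sphingomyelinase of bone and cartilage, -3.18 for Col6a5, -3.06 for Lif and -2.93 for Spp1. The same difference was 3.34 for Enpp1, which makes the mineralization inhibitor pyrophosphate, 3.07 for Fabp4 and 2.85 for Gm10320. For Fabp4 the Matrigel value minus the antibody value was 4.65. The IgG value minus the antibody value was 5.72 for Smpd3, 4.99 for Saa3, 3.92 for Hist1h1b and -2.13 for Enpp1.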

How the results depend on the processing

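The share of eligible cells that were members depended on depth and on the rule, in the order Matrigel, IgG and antibody. It was 9.30%, 0.573% and 3.45% with at least 3 of the 4 rule genes, 4.41%, 0.218% and 0.707% after thinning to 2000 UMIs, and 34.1%, 8.83% and 14.5% among cells with 10000 or more UMIs, an alternative chosen after seeing the data. Without Nos2 in the rule the IgG share was 2.86%. Under each of these 3 settings the Matrigel share was above the other two. Requiring 100 UMIs in the compared sums, which leaves fewer genes to test, gave 1120, 532 and 327 called genes for members against others (Matrigel, IgG, antibody), 693 for IgG against Matrigel members and 119 for antibody against IgG members. Of 1288 called values of named genes recomputed over all alternatives, 54 lost their call and 50 moved by over 1.5 times. The lost calls were 19 with the minimum of 100 UMIs, 13 with collagens at 3% or more of UMIs, 8 without Nos2 in the rule, 8 with means over cells and 6 elsewhere. The moved values were 17 with the collagen limit, 14 with 3 rule genes and 11 with means over cells. With means over cells Atp2b4 with IgG and the antibody and Col5a3 with the antibody were at 1.83, 1.73 and 1.96-fold, under the threshold, and Limk1 lost a call under 5 alternatives. Folds given for alternatives, here and above, have 1 UMI added to both sums. With collagens at 3% or more of UMIs, 4 log2 ratios changed sign. Car3 in Matrigel members against others went from 2.62 to -1.05, and for IgG against Matrigel members Car3 went from -4.84 to 4.26, Fabp4 from -5.16 to 1.39 and Spp1 from 4.56 to -0.39. Each of these genes lay in a few cells, and the cause was not tested. The rule with 3 genes left 3 IgG and 11 antibody members and the rule without Nos2 left 15 IgG members, so comparisons that need them were not run. Leaving out a replicate was not possible, and no paired analysis was possible because each group was 1 library.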
